A study of Homo sapiens with 12 samples.

Results

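The genes described here are 50 interferon-stimulated genes, a list of canonical targets of interferon signalling chosen by name, sensors of double-stranded RNA included. Each was matched by its symbol in a table of read counts per gene, and all 50 were among its 26481 genes with complete counts. Of these, 48 held 10 or more counts in at least 2 of the 12 libraries and were used. The remaining members were IFI44L, with 0 to 9 counts a library, and OASL, with 0 to 14 counts and 1 library at 10 or more. Just inside that limit lay OAS2, with 3 to 19 counts and 6 libraries at 10 or more, IFI27, with 5 to 16 counts and 7 such libraries, and MX1, with 7 to 26 counts and 11 such libraries. The members were chosen by name, with earlier results of these data known, and all 48 were among the 14164 genes with enough counts to be tested.

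RNA was sequenced from HEL, an established erythroleukaemia line of human AML (acute myeloid leukaemia), whose cells carried DNA barcodes. Cultures were exposed for 72 h or slightly longer to 1.8 µM doxorubicin (Doxo, n = 3), to 1.8 µM doxorubicin with 6 µM cytarabine (Doxo+Cyta, n = 3), or to both with 0.1 µM decitabine (Doxo+Cyta+DAC, n = 4), and untreated cells (NT, n = 2) were kept in 0.1 µM DMSO. Live cells were then recovered and grown without drug for approximately 30 days, until they again reached the number seeded, so every treated sample is a relapse and not a culture under drug. Doxorubicin is an anthracycline that damages DNA, cytarabine is a nucleoside analogue that blocks DNA synthesis, and decitabine is a nucleoside analogue that inhibits DNA methyltransferases. All groups come from 1 cell line, so the p-values measure the spread between its cultures. No sample received decitabine alone.

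Interferons are secreted proteins that bind paired receptors on the cell surface. Janus kinases bound to these receptors phosphorylate STAT proteins, which join IRF9 and bind a DNA element, the interferon-stimulated response element, in front of the target genes. The targets sense or degrade viral RNA, block translation or entry of viruses, attach the ubiquitin-like protein ISG15 to other proteins, and include most of the pathway's own sensors and transcription factors. DNA methyltransferase inhibitors are known to raise such genes in some cancer cells, through double-stranded RNA made from endogenous repeats.

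The promoters of 5 members show the element and the neighbours in which the differences below were seen, from 250 bases before to 50 bases after the RefSeq start on GRCh38.p14, written 5′ to 3′ on the strand of the gene. IFIH1 (chr2:162318635-162318934, minus strand) encodes the double-stranded RNA sensor with one of the largest falls in Doxo+Cyta+DAC, and OAS3 (chr12:112938224-112938523, plus strand) an RNA-activated synthetase that rose there. SAMD9 (chr7:93117930-93118229, minus strand) and SAMD9L (chr7:93148336-93148635, minus strand) are adjacent antiviral genes with different responses, and CMPK2 (chr2:6866586-6866885, minus strand) is the member with the largest rise in that relapse. Capitals mark matches to the core of the element, GAAA, any pair of bases and GAAA again, on either strand, where overlapping matches run together.
IFIH1: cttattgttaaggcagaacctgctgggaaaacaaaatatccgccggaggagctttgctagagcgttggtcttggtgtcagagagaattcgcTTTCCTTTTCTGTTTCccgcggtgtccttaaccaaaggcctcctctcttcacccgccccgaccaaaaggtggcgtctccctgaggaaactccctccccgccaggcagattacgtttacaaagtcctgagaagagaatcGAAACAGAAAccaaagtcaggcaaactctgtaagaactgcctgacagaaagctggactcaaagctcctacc
OAS3: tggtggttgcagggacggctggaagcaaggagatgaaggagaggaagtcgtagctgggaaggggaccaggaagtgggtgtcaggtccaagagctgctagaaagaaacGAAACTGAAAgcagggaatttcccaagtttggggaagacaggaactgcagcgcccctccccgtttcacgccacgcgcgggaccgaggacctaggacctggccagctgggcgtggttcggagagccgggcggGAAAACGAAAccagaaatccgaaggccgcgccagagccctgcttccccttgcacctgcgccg
SAMD9: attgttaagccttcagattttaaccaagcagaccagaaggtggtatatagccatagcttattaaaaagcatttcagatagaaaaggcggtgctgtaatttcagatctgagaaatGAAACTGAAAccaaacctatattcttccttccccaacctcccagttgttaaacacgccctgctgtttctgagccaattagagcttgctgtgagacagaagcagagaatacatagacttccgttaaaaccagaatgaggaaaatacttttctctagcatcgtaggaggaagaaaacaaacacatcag
SAMD9L: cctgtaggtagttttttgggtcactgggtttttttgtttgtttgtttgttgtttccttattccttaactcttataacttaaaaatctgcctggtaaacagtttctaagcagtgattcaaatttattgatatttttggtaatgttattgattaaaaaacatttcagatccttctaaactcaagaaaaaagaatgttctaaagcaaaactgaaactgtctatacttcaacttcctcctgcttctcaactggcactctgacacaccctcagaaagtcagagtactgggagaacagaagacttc
CMPK2: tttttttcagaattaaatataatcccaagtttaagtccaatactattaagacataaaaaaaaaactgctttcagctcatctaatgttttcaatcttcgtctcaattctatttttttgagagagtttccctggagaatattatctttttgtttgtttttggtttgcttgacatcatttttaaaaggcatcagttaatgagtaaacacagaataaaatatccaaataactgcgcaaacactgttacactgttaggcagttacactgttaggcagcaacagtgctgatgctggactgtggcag

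The IFIH1 window held the core in 2 places, beginning 159 and 21 bases before the start, and that of OAS3 also held it in 2, at 143 and 12 bases. SAMD9 had 1 match at 136 bases, and no match to these letters lay in the windows of SAMD9L and CMPK2. RefSeq windows were found for 39 of the 48 members used, and those of IFIT2, IFITM2, MX2, OAS2, IRF7, DHX58, USP18, TRIM22 and GBP2 were not among them. For 33 of the 39 the RefSeq start lay within 200 bases of the gene start in the deposited annotation, and windows farther away were kept in the counts below. The core was present in 22 of 39 member windows (56.4%) and in 3.57% of all 35116 windows of the same length. The GAS motif TTCNNNGAA, which STAT dimers bind, was present in 8 of 39 (20.5%) and in 7.66% of all windows. Among members with a window, the core was held by 9 of the 18 that were higher in both chemotherapy relapses than in Doxo+Cyta+DAC, by 1 of the 5 that were lower in both, and by 12 of the 16 others. CG pairs, where human DNA is methylated, numbered a median of 10 a window in the first set, 16 in the second and 7.5 in the third, beside 14 over all windows. The 5 windows of the second set held 8 (IFI35), 20 (OAS3), 45 (RSAD2), 16 (HERC6) and 2 (CMPK2). That of RSAD2 starts 11780 bases from its deposited start, so the median of this set rests on few and unlike windows. These are matches of letters in a fixed window and no measurement of binding or methylation. Other starts of a gene, and forms of the element with other spacing, were not searched, so a window without a match does not show that a gene lacks the element.

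Total counts per library lay between 12763582 and 19106235, and levels are given as CPM, the standard unit of counts relative to the library total, with totals scaled by TMM, edgeR's normalization factors. Changes are log2 fold changes ± standard error from edgeR's quasi-likelihood test, and a gene was called higher or lower at a Benjamini-Hochberg adjusted p under 0.05 over all tested genes. Doxo replicate 4 and Doxo+Cyta replicate 20 stood farthest from the other libraries of their groups, at root-mean-square differences of 0.498 and 0.544 in log2 CPM, whereas the others lay at 0.294 to 0.435. The erythroid genes that identify HEL, GATA1, KLF1 and the globins among them, were present in every group, and of 6 megakaryocytic genes only PF4 was at or near 0. Both lists held genes called in the comparisons with Doxo+Cyta+DAC. The summed megakaryocytic level was 1143 to 1442 CPM in Doxo+Cyta+DAC and 1869.8 to 1942 CPM in NT. Of its 5 tested genes, 3 were lower and 1 higher than in NT, where 23.7% of all tested genes were lower and 24.9% higher. Of the 10 erythroid genes, 4 were lower and 1 higher in Doxo+Cyta+DAC than in NT, against the same shares. Relative to Doxo+Cyta+DAC, 8 were higher and 1 lower in Doxo+Cyta, against 30.5% and 29.8% of all genes. In Doxo 5 were higher and 0 lower, against 30.4% and 29.1%. Lymphoid, monocytic, plasmacytoid dendritic and stromal marker lists held 21 genes, of which 13 had at most 3 counts in every library. CD2, CD79A, CSF1R, TCF4, COL1A1 and PDGFRB were the exceptions with a level above 1 CPM in at least 1 library, and PDGFRB, at 34.5 to 50.6 CPM elsewhere, was at 5.94 to 9.08 CPM in Doxo+Cyta+DAC. CD79A, CSF1R and TCF4 were also lower there than in NT, and CD2 was not called. The summed level of 14 proliferation markers was 3705 to 3894 CPM in NT, 3107 to 3629 in Doxo, 3101 to 3144 in Doxo+Cyta and 5149 to 5234 in Doxo+Cyta+DAC. Relative to NT, 9 of the 14 were higher in Doxo+Cyta+DAC, against 24.9% of all genes. All 9 were genes of DNA replication and nucleotide supply (PCNA, MCM2 to MCM7, RRM2 and TYMS). TOP2A was lower, where 23.7% of all genes were, and MKI67, CCNA2, CCNB1 and CDK1 were not called. The part of all these marker lists in the results below was not tested. In bulk RNA, fewer cells that express a gene and less of its RNA per cell cannot be told apart.

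HEL cells expressed most of the list without treatment. Per kilobase of exon, the NT level was highest for the IFITM genes, which block entry of viruses through endosomes, at 252 CPM per kilobase for IFITM2, 179.7 for IFITM3 and 149.6 for IFITM1. IFI16, a DNA sensor, followed at 82.4 CPM per kilobase, UBE2L6, the ISG15-conjugating enzyme, at 69.4, and ADAR, which edits double-stranded RNA, at 45.8. The lowest of the used members were OAS2 at 0.0533, MX1 at 0.342 and IFI27 at 0.49 CPM per kilobase. Several genes that interferon typically induces most strongly were thus near the detection limit, whereas MX2, the neighbour of MX1, was at 32.8 CPM per kilobase.

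The relapses differed most between those with and without decitabine. Relative to Doxo+Cyta+DAC, 25 of 48 members were higher and 9 lower in Doxo+Cyta, where 30.5% of all tested genes were higher and 29.8% lower. In Doxo the counts were 26 higher and 7 lower, against 30.4% and 29.1% of all genes. The share of members that were higher was thus 52.1% and 54.2%, above the background share in both comparisons, and the share that were lower, 18.8% and 14.6%, was below it. The median log2 difference of the members was 0.45 in Doxo+Cyta and 0.48 in Doxo, whereas the medians over all tested genes were 0.00 and 0.01. Both comparisons use the same 4 Doxo+Cyta+DAC libraries. The members called in both were 25 higher and 6 lower, and none was called in opposite directions. Separation by library gave a like picture: in 22 members (45.8%) all 6 chemotherapy libraries lay above all 4 Doxo+Cyta+DAC libraries, against 23.1% of all genes, and in 6 members (12.5%) all 6 lay below, against 23.6%. Taken one comparison at a time, the libraries of both groups did not overlap for 23 members higher and 7 lower in Doxo (30.2% and 29.7% of all genes) and for 25 higher and 10 lower in Doxo+Cyta (28.2% and 29% of all genes). Leaving out 1 library gave 23 to 26 higher and 7 to 10 lower for Doxo+Cyta, and 22 to 28 higher and 6 to 8 lower for Doxo. Without the libraries that stood apart, Doxo+Cyta had 24 higher and 9 lower without its replicate 20, and Doxo 28 higher and 7 lower without its replicate 4. The share of all genes called in the fits that left out 1 library was not computed.

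Relative to NT, the members divided by relapse. In Doxo, 10 members were higher (IFI16, IFIT3, IRF1, IRF7, IRF9, USP18, TRIM22, GBP1, GBP2 and SP100) and 0 lower, where 6.06% of all genes were higher and 4.63% lower. In Doxo+Cyta, 3 were higher (IRF7, GBP2 and SP100) and 0 lower, against 0.911% and 0.551% of all genes. The medians of the members were 0.30 and 0.25, beside 0.01 and 0.01 for all genes, and the summed proliferation markers lay below NT in all 6 of these libraries. Of the 14 markers, 2 were called lower in Doxo and 1 in Doxo+Cyta, and 0 higher in either, against the same shares of all genes. By library, the median difference of the members from the NT mean was 0.11, 0.41 and 0.39 in Doxo replicates 4, 5 and 6. It was 0.21, 0.12 and 0.25 in Doxo+Cyta replicates 19, 20 and 22. Beside the counts of 0 lower, 20 and 16 members had an unadjusted p under 0.05 in either direction. DESeq2 called 0 lower in both comparisons and 11 and 6 higher. For these counts the share of all genes was not computed, so they cannot be set against a background. The libraries lay apart from both NT libraries for 23 members above and 5 below in Doxo (24.6% and 24.5% of all genes), and for 21 above and 3 below in Doxo+Cyta (21.4% and 19.2%). These calls rested on few NT cultures: without NT replicate 1 edgeR called 0 members higher in either relapse, and without NT replicate 2 it called 1 in Doxo and 0 in Doxo+Cyta. Without Doxo replicate 4 it called 17 higher and 1 lower in Doxo, without replicate 5 or replicate 6 it called 5 higher, and Doxo+Cyta had 0 without its replicate 19 and 1 without its replicate 22. For the fits that left out 1 library, too, the share of all genes was not computed.

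In Doxo+Cyta+DAC, 9 members were higher than in NT and 13 lower, against 24.9% and 23.7% of all genes, and the median of the members, 0.04, was close to the 0.02 of all genes. The list as a whole therefore neither rose nor fell beyond the background in this relapse, and its members went both ways. The 13 that fell were IFIT1, IFIT2, IFITM1, IFITM2, IFITM3, STAT2, IFIH1, DHX58, XAF1, SAMD9L, PARP12, TRIM25 and LGALS3BP, and the 9 that rose were IFI35, IFI16, MX2, OAS3, RSAD2, HERC6, CMPK2, PARP9 and GBP1. The libraries did not overlap with those of NT for 16 members above and 17 below, against 34.2% and 32.9% of all genes. Without NT replicate 1 the number that rose was 5. The 25 members higher in both chemotherapy relapses than in Doxo+Cyta+DAC accordingly fell into 3 sets. Of these, 12 were below NT in Doxo+Cyta+DAC, 8 (IFIT3, IRF1, IRF7, IRF9, USP18, TRIM22, GBP2 and SP100) were above NT in Doxo and not called in Doxo+Cyta+DAC, and 5 (ISG15, IFI44, DDX58, ISG20 and UBE2L6) were not called against NT in any relapse. All 6 members lower in both (IFI35, MX2, OAS3, RSAD2, HERC6 and CMPK2) were above NT in Doxo+Cyta+DAC. A stricter call, a fold change over 2 with an adjusted p under 0.01, left 4 members higher in Doxo than in NT and 0 lower, against 1.08% and 0.473% of all genes, and 0 members in either direction in Doxo+Cyta, where 0% of all genes passed it. In Doxo+Cyta+DAC it left 1 higher and 4 lower than NT, against 6.9% and 9.28%. Relative to Doxo+Cyta+DAC it left 11 higher and 3 lower in Doxo, against 11.9% and 9.71%, and 10 higher and 2 lower in Doxo+Cyta, against 13.1% and 10.2%. The share of members higher, 22.9% and 20.8%, was above the background in both, and the share lower, 6.25% and 4.17%, below it. Any difference between the 4 groups was called for 38 members (79.2%) and for 66.5% of all genes.

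**Figure D1:**
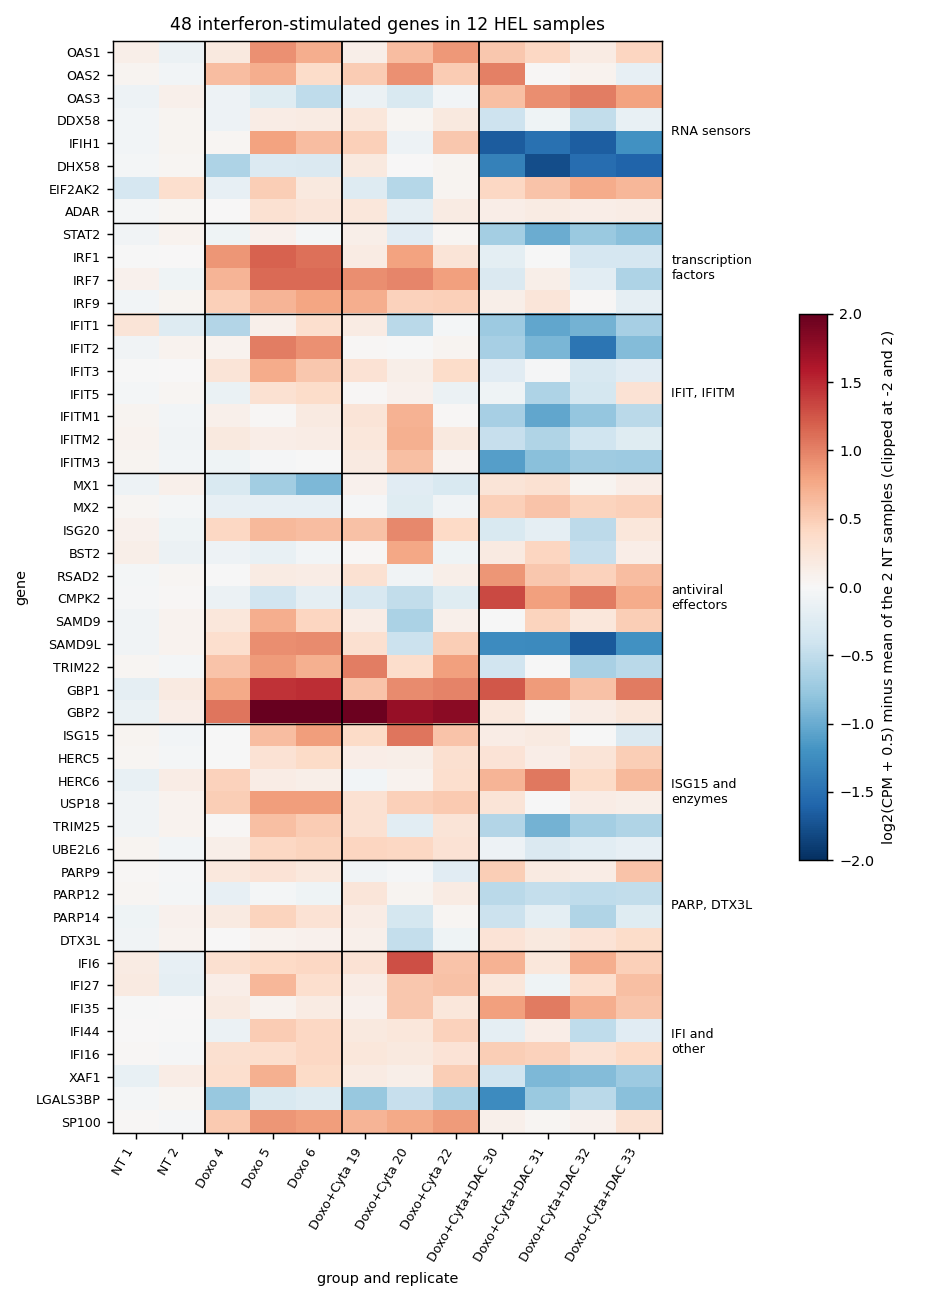
Each row is 1 of the 48 members, grouped by role, and each column 1 of the 12 libraries. Colour gives log2(CPM + 0.5) minus the mean of the 2 NT libraries, red above and blue below, clipped at -2 and 2. The 4 Doxo+Cyta+DAC columns hold both the bluest rows (IFIH1, DHX58, SAMD9L) and rows that are red there and pale elsewhere (OAS3, CMPK2), and GBP2 is red in the 6 chemotherapy columns.

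Doxo and Doxo+Cyta, which differ in cytarabine, differed in 1 member, IRF1, which was higher in Doxo, and in 0 lower, against 2.32% and 1.07% of all genes. Their libraries did not overlap for 6 members higher and 4 lower in Doxo, against 10.4% and 10.6% of all genes. At an unadjusted p under 0.05 there were 11 members, and DESeq2 called 1 higher and 1 lower, counts for which the share of all genes was not computed. The stricter call left 0 in either direction, against 0.311% and 0.0635% of all genes. The median difference was 0.09, beside -0.01 for all genes, but it was -0.02 without Doxo replicate 5, 0.02 without Doxo replicate 6, 0.04 without Doxo+Cyta replicate 20 and 0.04 under upper-quartile scaling, so its sign is not fixed, and the members ranged from -0.77 to 0.73, so differences of up to that size were measured and not called.

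**Figure D2:**
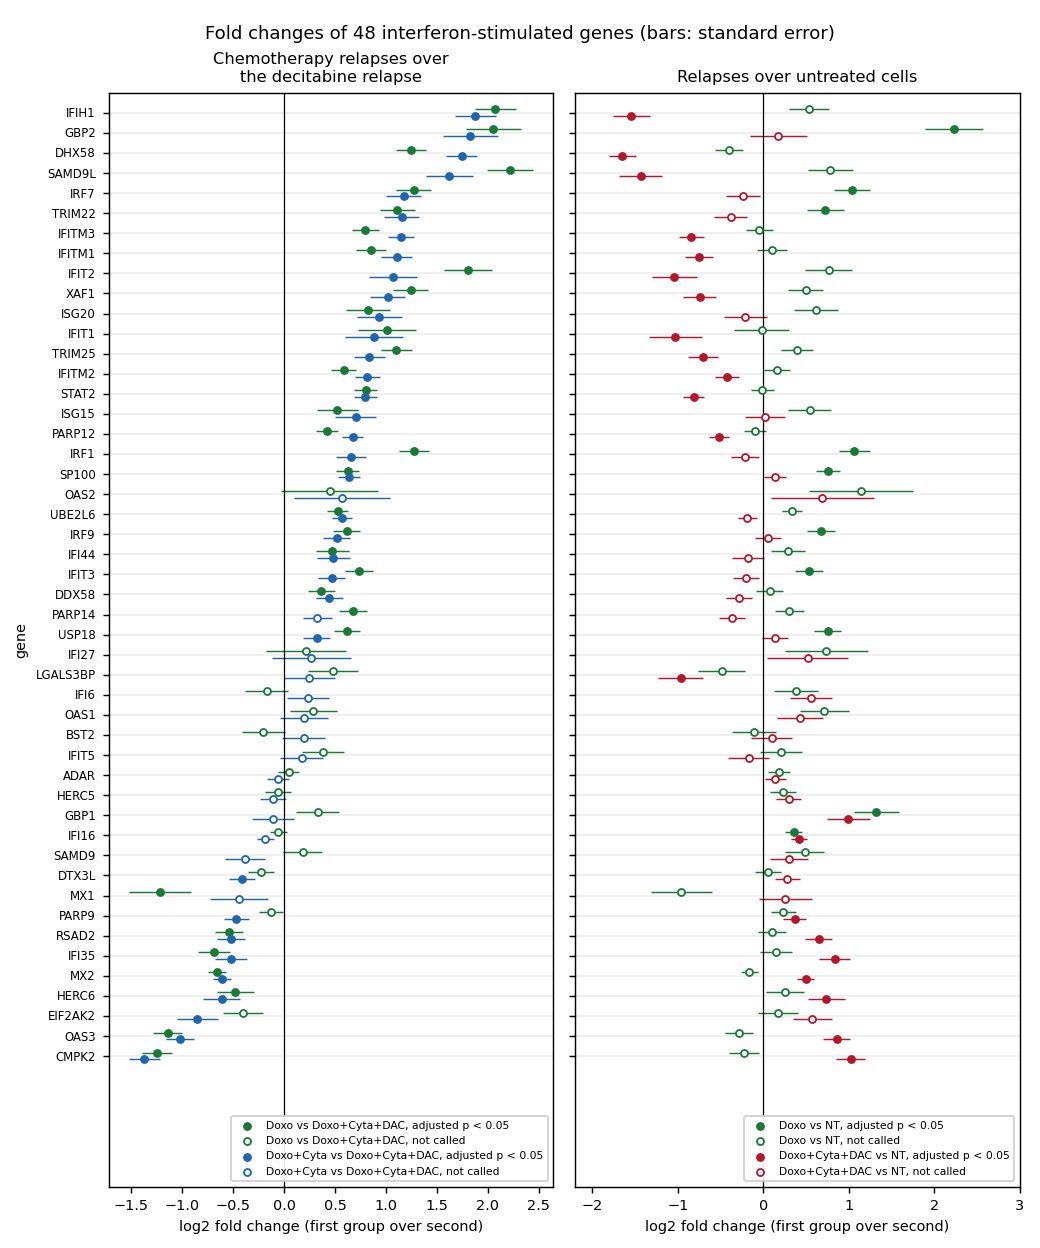
Points are log2 fold changes with standard errors for the 48 members, filled at an adjusted p under 0.05, sorted by Doxo+Cyta over Doxo+Cyta+DAC. The left panel sets both chemotherapy relapses against Doxo+Cyta+DAC, where 25 members are filled to the right and 6 to the left in both. The right panel sets Doxo and Doxo+Cyta+DAC against NT, where filled green points lie to the right only (10 members) and filled red points on both sides (9 right, 13 left).

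The 3 cytoplasmic RNA helicases that sense viral RNA did not move alike. IFIH1, which encodes MDA5 and binds long double-stranded RNA, was at 31.7 and 34.1 CPM in NT, 33.9, 58 and 50.7 in Doxo, 46, 30.6 and 47.9 in Doxo+Cyta and 10.0, 11.3, 10.1 and 13.9 in Doxo+Cyta+DAC. Every Doxo+Cyta+DAC library was below every other library by a wide margin, while Doxo and Doxo+Cyta overlapped with NT. It changed by -1.54 ± 0.22 (adjusted p = 8.02e-05) in Doxo+Cyta+DAC relative to NT, and was higher in Doxo and Doxo+Cyta than in that relapse by 2.07 ± 0.20 (adjusted p = 1.77e-06) and 1.88 ± 0.20 (adjusted p = 2.96e-06). DHX58 encodes LGP2, a relative of MDA5 without signalling domains that helps it assemble on RNA. Its level was 14.5 and 15.3 CPM in NT, 9.56, 12.2 and 12.1 in Doxo, 17.1, 15 and 15.6 in Doxo+Cyta and 5.51, 3.99, 4.88 and 4.59 in Doxo+Cyta+DAC. The Doxo+Cyta+DAC libraries were again lowest, and the 3 Doxo libraries lay between them and all others. DHX58 changed by -1.65 ± 0.16 (adjusted p = 5.79e-06) in Doxo+Cyta+DAC relative to NT, the largest fall of any member, and Doxo and Doxo+Cyta exceeded it by 1.25 ± 0.15 (adjusted p = 1.05e-05) and 1.74 ± 0.15 (adjusted p = 4.84e-07). Its value in Doxo relative to NT, -0.40 ± 0.17 (adjusted p = 0.136), was not called. DDX58 encodes RIG-I, which binds RNA ends with a triphosphate, and was at 24.3 and 26 CPM in NT, 23.2, 27.9 and 28.3 in Doxo, 29.6, 25.7 and 28.8 in Doxo+Cyta and 18.6, 23.7, 17.6 and 22.7 in Doxo+Cyta+DAC. The Doxo+Cyta+DAC libraries were below NT and Doxo+Cyta, and 1 of them exceeded the lowest Doxo library. DDX58 was called in Doxo+Cyta over Doxo+Cyta+DAC (0.44 ± 0.13 (adjusted p = 0.0104)) and in Doxo (0.36 ± 0.13 (adjusted p = 0.0305)), and the value relative to NT, -0.28 ± 0.15 (adjusted p = 0.132), was not called. The call in Doxo was lost without Doxo replicate 5 (adjusted p = 0.107) or 6 (0.114) and without Doxo+Cyta+DAC replicate 30 (0.0823) or 32 (0.0929).

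The oligoadenylate synthetases, antiviral enzymes that double-stranded RNA switches on, also differed among themselves. OAS3, the largest of the family, was at 22.4 and 26.1 CPM in NT, 22.5, 20.3 and 16.9 in Doxo, 22.2, 19.5 and 23.2 in Doxo+Cyta and 37, 46.6, 49.6 and 42.6 in Doxo+Cyta+DAC. All 4 Doxo+Cyta+DAC libraries were above all 8 others. OAS3 rose by 0.86 ± 0.16 (adjusted p = 0.000637) relative to NT, and Doxo and Doxo+Cyta differed from Doxo+Cyta+DAC by -1.14 ± 0.14 (adjusted p = 1.33e-05) and -1.02 ± 0.14 (adjusted p = 2.77e-05). OAS1, the short form of the family, was at 3.65 and 3.04 CPM in NT, 3.91, 6.69 and 5.87 in Doxo, 3.65, 5.4 and 6.48 in Doxo+Cyta and 5.08, 4.61, 3.78 and 4.67 in Doxo+Cyta+DAC. NT lay at the low end with 1 Doxo+Cyta library, and the relapses overlapped with one another. Its largest difference, 0.72 ± 0.28 (adjusted p = 0.116) in Doxo relative to NT, was not called. OAS2 was at 0.36 and 0.298 CPM in NT, 0.768, 0.873 and 0.568 in Doxo, 0.68, 1.07 and 0.672 in Doxo+Cyta and 1.16, 0.344, 0.367 and 0.238 in Doxo+Cyta+DAC, or 3 to 19 counts a library. With so few counts its values, such as 1.26 ± 0.60 (adjusted p = 0.256) in Doxo+Cyta relative to NT, carried large errors, and a difference was not detectable at this depth.

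EIF2AK2 encodes PKR, a kinase that stops translation when double-stranded RNA binds it, and was at 17.1 and 27.7 CPM in NT, 19.5, 31 and 25 in Doxo, 18.2, 14.5 and 22.7 in Doxo+Cyta and 29.2, 32.5, 36.8 and 34.9 in Doxo+Cyta+DAC. The 2 NT libraries lay far apart, and all 4 Doxo+Cyta+DAC libraries were above NT and Doxo+Cyta but overlapped with Doxo. Doxo+Cyta was lower than Doxo+Cyta+DAC, at -0.85 ± 0.20 (adjusted p = 0.00234). The difference between Doxo+Cyta+DAC and NT, 0.58 ± 0.23 (adjusted p = 0.0502), fell just outside the threshold. ADAR, whose editing of double-stranded RNA keeps MDA5 and PKR from binding it, was at 315 and 335 CPM in NT, 326, 399 and 383 in Doxo, 379.6, 287 and 363 in Doxo+Cyta and 357, 363, 354 and 359.9 in Doxo+Cyta+DAC. Its groups overlapped except that Doxo+Cyta+DAC lay above NT, and no comparison was called, with differences between -0.06 ± 0.11 and 0.19 ± 0.13. Of the 8 sensors and RNA-activated enzymes used, 2 thus fell, 1 rose and 5 were not called in Doxo+Cyta+DAC relative to NT, near the 23.7% of all genes lower and no more than the 24.9% higher, and 0 were called in Doxo or Doxo+Cyta relative to NT.

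**Figure D3:**
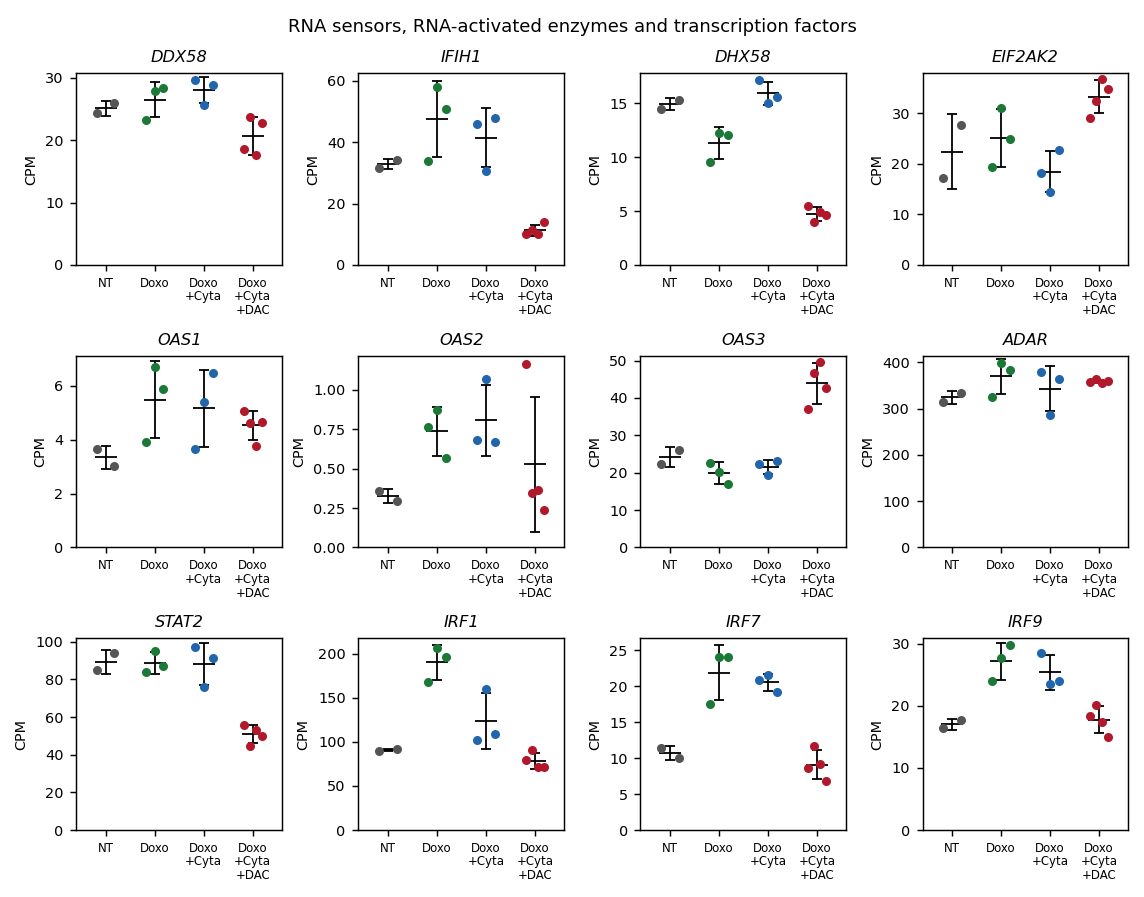
CPM in each library (points), with the mean and SD of each group (bars), for 8 RNA sensors and RNA-activated enzymes and 4 transcription factors, each axis starting at 0. IFIH1, DHX58 and STAT2 have their lowest points in Doxo+Cyta+DAC and OAS3 its highest, whereas IRF1, IRF7 and IRF9 rose in Doxo relative to NT, IRF7 also in Doxo+Cyta, and none of the 3 was called in Doxo+Cyta+DAC.

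All 4 transcription factors were higher in both chemotherapy relapses than in Doxo+Cyta+DAC, where 30.4% (Doxo) and 30.5% (Doxo+Cyta) of all genes were, in 2 patterns. STAT2, a subunit of the interferon-activated complex that binds the response element, was at 84.8 and 93.9 CPM in NT, 83.8, 95 and 86.9 in Doxo, 97, 76 and 91.5 in Doxo+Cyta and 55.7, 44.6, 53.1 and 49.97 in Doxo+Cyta+DAC. NT, Doxo and Doxo+Cyta overlapped, and every Doxo+Cyta+DAC library was below them. The change was -0.81 ± 0.13 (adjusted p = 0.000161) in Doxo+Cyta+DAC relative to NT, and -0.01 ± 0.13 and -0.02 ± 0.13 in Doxo and Doxo+Cyta, neither of them called. IRF9, the DNA-binding subunit of the same complex, was at 16.4 and 17.7 CPM in NT, 23.9, 27.7 and 29.8 in Doxo, 28.6, 23.5 and 24 in Doxo+Cyta and 18.4, 20.2, 17.3 and 15 in Doxo+Cyta+DAC. Here all 6 chemotherapy libraries were above the others, and Doxo+Cyta+DAC overlapped with NT. IRF9 rose in Doxo relative to NT by 0.67 ± 0.16 (adjusted p = 0.02), its value in Doxo+Cyta, 0.57 ± 0.16 (adjusted p = 0.083), was not called, and Doxo and Doxo+Cyta exceeded Doxo+Cyta+DAC by 0.61 ± 0.13 (adjusted p = 0.00126) and 0.52 ± 0.13 (adjusted p = 0.00404). Without NT replicate 1 or 2 the adjusted p in Doxo relative to NT was 0.193 or 0.127, and without Doxo replicate 5 or 6 it was 0.0806 or 0.0926.

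IRF7, which amplifies the production of interferon alpha, was at 11.4 and 10.1 CPM in NT, 17.5, 24.2 and 24.1 in Doxo, 20.8, 21.5 and 19.2 in Doxo+Cyta and 8.64, 11.7, 9.18 and 6.81 in Doxo+Cyta+DAC. All 6 chemotherapy libraries exceeded all NT and Doxo+Cyta+DAC libraries. IRF7 rose relative to NT in Doxo by 1.03 ± 0.21 (adjusted p = 0.00938) and in Doxo+Cyta by 0.94 ± 0.21 (adjusted p = 0.0461), and exceeded Doxo+Cyta+DAC by 1.27 ± 0.17 (adjusted p = 2.9e-05) and 1.17 ± 0.17 (adjusted p = 4.95e-05). The deposited counts of IRF7 include a copy on an alternate contig. IRF1, a factor of interferon gamma responses that DNA damage also induces, was at 90.1 and 91.8 CPM in NT, 167, 207 and 196 in Doxo, 102, 160.1 and 109 in Doxo+Cyta and 79.8, 90.3, 71.7 and 71.6 in Doxo+Cyta+DAC. The 3 Doxo libraries were above all others, and Doxo+Cyta, with its replicate 20 high, was above NT. IRF1 rose in Doxo relative to NT by 1.06 ± 0.18 (adjusted p = 0.0044), exceeded Doxo+Cyta by 0.62 ± 0.16 (adjusted p = 0.0467), and Doxo and Doxo+Cyta exceeded Doxo+Cyta+DAC by 1.28 ± 0.15 (adjusted p = 7.47e-06) and 0.66 ± 0.15 (adjusted p = 0.0015). The difference from Doxo+Cyta was lost in 9 of the fits that left out 1 library, Doxo replicate 5 (0.195), NT replicate 1 (0.08) and Doxo+Cyta replicate 19 (0.171) among them. Relative to NT, both genes lost their calls in Doxo without NT replicate 1 (adjusted p = 0.096 for IRF7 and 0.081 for IRF1) or 2 (0.12 and 0.0632). IRF7 in Doxo+Cyta relative to NT lost its call in 9 such fits, with adjusted p from 0.0635 to 0.484.

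The IFIT genes encode proteins that bind foreign RNA ends, and 2 of the 4 fell in Doxo+Cyta+DAC. IFIT2 was at 8.08 and 8.99 CPM in NT, 9.0, 17.8 and 16.5 in Doxo, 8.72, 8.47 and 8.92 in Doxo+Cyta and 5.21, 4.26, 2.78 and 4.43 in Doxo+Cyta+DAC. The Doxo+Cyta+DAC libraries were lowest, Doxo replicates 5 and 6 were well above everything else, and Doxo replicate 4 was at the NT level. IFIT2 changed by -1.04 ± 0.26 (adjusted p = 0.0053) in Doxo+Cyta+DAC relative to NT, and exceeded it in Doxo by 1.80 ± 0.24 (adjusted p = 2.16e-05) and in Doxo+Cyta by 1.07 ± 0.24 (adjusted p = 0.0016). IFIT1, the family's best-known member, was at 4.63 and 3.1 CPM in NT, 2.37, 4.13 and 4.92 in Doxo, 4.33, 2.47 and 3.67 in Doxo+Cyta and 2.08, 1.58, 1.73 and 2.22 in Doxo+Cyta+DAC. Every Doxo+Cyta+DAC library was below every other library, by a small margin against Doxo replicate 4. Its values relative to NT were -1.03 ± 0.31 (adjusted p = 0.0141) in Doxo+Cyta+DAC and -0.02 ± 0.32 in Doxo, the latter not called. The first was lost without NT replicate 1 (adjusted p = 0.204), and the excess over Doxo+Cyta+DAC was 1.01 ± 0.28 (adjusted p = 0.00729) in Doxo, lost without Doxo replicate 6 (0.0514), and 0.88 ± 0.29 (adjusted p = 0.016) in Doxo+Cyta, lost without Doxo+Cyta replicate 19 (0.0801). IFIT3 was also higher in both chemotherapy relapses than in Doxo+Cyta+DAC, by 0.73 ± 0.13 and 0.47 ± 0.13, and IFIT5 was called in none of the 6 comparisons.

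The 3 IFITM genes fell together in Doxo+Cyta+DAC. IFITM3, the form with the strongest known effect on influenza virus, was at 125 and 115 CPM in NT, 112, 118 and 119 in Doxo, 137, 182 and 126 in Doxo+Cyta and 55.9, 67.2, 72.9 and 72 in Doxo+Cyta+DAC. The decitabine relapse was below all others, and Doxo+Cyta replicate 20 stood above its group. IFITM3 changed by -0.84 ± 0.14 (adjusted p = 0.000368) relative to NT, and Doxo and Doxo+Cyta exceeded Doxo+Cyta+DAC by 0.80 ± 0.13 (adjusted p = 0.000141) and 1.15 ± 0.13 (adjusted p = 5.61e-06). IFITM1, the form found at the cell surface, was at 111 and 104 CPM in NT, 115, 109 and 121 in Doxo, 128, 174 and 109 in Doxo+Cyta and 67.1, 51.7, 62.8 and 73.6 in Doxo+Cyta+DAC. Again the decitabine relapse was lowest and Doxo+Cyta replicate 20 again highest, and the other libraries overlapped. The change was -0.75 ± 0.17 (adjusted p = 0.00218) relative to NT, and Doxo and Doxo+Cyta lay above Doxo+Cyta+DAC by 0.85 ± 0.15 (adjusted p = 0.000247) and 1.10 ± 0.15 (adjusted p = 2.51e-05). IFITM2 changed by -0.42 ± 0.14 (adjusted p = 0.0226) relative to NT, a call lost without NT replicate 1 (adjusted p = 0.17) or 2 (0.0599) or Doxo+Cyta+DAC replicate 31 (0.0552). The 3 genes are paralogs, and since fragments that aligned to several places were not counted, the share of each may be uncertain, which was not measured. Of the 7 IFIT and IFITM genes, 5 fell and 0 rose in Doxo+Cyta+DAC relative to NT, where 23.7% of all genes were lower and 24.9% higher, and 6 were higher and 0 lower in each chemotherapy relapse than in Doxo+Cyta+DAC, where 30.4% (Doxo) and 30.5% (Doxo+Cyta) of all genes were higher.

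The other antiviral effectors went in both directions. GBP2, a guanylate-binding protein that attacks pathogen membranes, was at 2.57 and 3.16 CPM in NT, 6.56, 18.7 and 15 in Doxo, 12.5, 10.7 and 11.2 in Doxo+Cyta and 3.37, 2.96, 3.2 and 3.41 in Doxo+Cyta+DAC. All 6 chemotherapy libraries were above all NT and Doxo+Cyta+DAC libraries, and these last 2 groups overlapped. It rose relative to NT by 2.23 ± 0.34 (adjusted p = 0.0027) in Doxo, the largest rise of any member, and by 2.01 ± 0.34 (adjusted p = 0.0236) in Doxo+Cyta, and exceeded Doxo+Cyta+DAC by 2.05 ± 0.27 (adjusted p = 2.19e-05) and 1.83 ± 0.27 (adjusted p = 5.37e-05). Without NT replicate 1 the adjusted p relative to NT was 0.0722 in Doxo and 0.24 in Doxo+Cyta. In Doxo+Cyta it was also lost without NT replicate 2 (0.351) or Doxo+Cyta replicate 19 (0.0542). GBP1, of the same family, was at 5.66 and 7.39 CPM in NT, 11.3, 18.6 and 18.9 in Doxo, 9.89, 12.9 and 13.3 in Doxo+Cyta and 16, 12.1, 9.97 and 13.9 in Doxo+Cyta+DAC. Every relapse library was above both NT libraries, and the relapses overlapped. GBP1 rose in Doxo by 1.32 ± 0.26 (adjusted p = 0.00854) over NT, and in Doxo+Cyta+DAC by 0.99 ± 0.25 (adjusted p = 0.00514), and the value in Doxo+Cyta, 0.89 ± 0.26 (adjusted p = 0.0939), was not called. Both calls were lost without NT replicate 1 (adjusted p = 0.135 and 0.0831), and the first also without NT replicate 2 (0.0632).

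SAMD9L, a restriction factor of poxviruses and a tumour suppressor of myeloid cells, was at 13 and 14.4 CPM in NT, 17.3, 26.4 and 26.8 in Doxo, 17.2, 10.0 and 19.5 in Doxo+Cyta and 5.45, 5.36, 3.94 and 5.62 in Doxo+Cyta+DAC. The 4 Doxo+Cyta+DAC libraries were below all others, and Doxo was above NT. SAMD9L changed by -1.43 ± 0.25 (adjusted p = 0.000434) in Doxo+Cyta+DAC relative to NT, and exceeded it in Doxo and Doxo+Cyta by 2.21 ± 0.23 (adjusted p = 3.02e-06) and 1.62 ± 0.23 (adjusted p = 3.74e-05). CMPK2, a mitochondrial nucleotide kinase, was at 17.9 and 18.4 CPM in NT, 16.6, 13.9 and 16 in Doxo, 14.5, 12.8 and 15.3 in Doxo+Cyta and 46, 32.3, 37.9 and 30.8 in Doxo+Cyta+DAC. It was raised in every Doxo+Cyta+DAC library and lowest in Doxo and Doxo+Cyta. CMPK2 rose by 1.02 ± 0.17 (adjusted p = 0.000307) relative to NT, and Doxo and Doxo+Cyta were below Doxo+Cyta+DAC, at -1.25 ± 0.15 (adjusted p = 1.12e-05) and -1.37 ± 0.15 (adjusted p = 4.32e-06). Of the 11 effectors, 4 rose (MX2, RSAD2, CMPK2 and GBP1) and 1 fell (SAMD9L) in Doxo+Cyta+DAC relative to NT, against 24.9% and 23.7% of all genes. MX2, which blocks nuclear import of viruses, rose by 0.50 ± 0.10, and RSAD2, or viperin, which makes a chain-terminating nucleotide, by 0.65 ± 0.16, a call that RSAD2 lost without NT replicate 1 (adjusted p = 0.051). TRIM22, a ubiquitin ligase, and ISG20, an RNA exonuclease, exceeded Doxo+Cyta+DAC by 1.15 ± 0.17 and 0.94 ± 0.22 in Doxo+Cyta, and BST2, or tetherin, was called in none of the 6 comparisons. MX1 was lower in Doxo than in Doxo+Cyta+DAC (-1.22 ± 0.31 (adjusted p = 0.00364)), at 7 to 13 counts in the 3 Doxo libraries.

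ISG15 is a ubiquitin-like protein that a set of induced enzymes attaches to and removes from targets. ISG15 itself was at 16.7 and 15.4 CPM in NT, 16, 25 and 29 in Doxo, 21.1, 34.1 and 24.1 in Doxo+Cyta and 17.8, 18.2, 16 and 13.1 in Doxo+Cyta+DAC. Doxo+Cyta was above the other groups except for an overlap with Doxo, and Doxo replicate 4 was at the level of NT and Doxo+Cyta+DAC. It exceeded Doxo+Cyta+DAC by 0.70 ± 0.20 (adjusted p = 0.00899) in Doxo+Cyta, lost without Doxo+Cyta replicate 20 (0.0511), and by 0.52 ± 0.21 (adjusted p = 0.0409) in Doxo, which was lost in 7 of the fits that left out 1 library, with adjusted p from 0.0513 to 0.228. TRIM25, an ISG15 ligase that also activates RIG-I, was at 93.8 and 104 CPM in NT, 101, 149.8 and 139.9 in Doxo, 122, 85.3 and 118 in Doxo+Cyta and 65.6, 51.1, 61.3 and 64.9 in Doxo+Cyta+DAC. Doxo+Cyta+DAC was below all others, and Doxo replicates 5 and 6 were highest. TRIM25 changed by -0.70 ± 0.17 (adjusted p = 0.00419) relative to NT, a call lost without NT replicate 2 (0.0507), and Doxo and Doxo+Cyta exceeded Doxo+Cyta+DAC by 1.10 ± 0.15 (adjusted p = 3.89e-05) and 0.84 ± 0.15 (adjusted p = 0.000348). Its span in the genome holds a microRNA gene on the same strand.

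USP18, which removes ISG15 and blocks the interferon receptor, was at 12.1 and 13.6 CPM in NT, 18.3, 23.3 and 23.4 in Doxo, 16, 18 and 18.8 in Doxo+Cyta and 15.4, 12.8, 14.3 and 14 in Doxo+Cyta+DAC. Both chemotherapy relapses were above NT and Doxo+Cyta+DAC, and they overlapped with each other. USP18 rose in Doxo relative to NT by 0.75 ± 0.16 (adjusted p = 0.0113) and exceeded Doxo+Cyta+DAC by 0.62 ± 0.13 (adjusted p = 0.00104) in Doxo and 0.32 ± 0.13 (adjusted p = 0.0494) in Doxo+Cyta. The first call was lost without NT replicate 1 (0.151) or 2 (0.0837) and without Doxo replicate 5 (0.0572) or 6 (0.0558), and the last in 9 of the fits that left out 1 library, with adjusted p from 0.0547 to 0.136. HERC6, a member of the HERC ligase family, was at 6.64 and 8.22 CPM in NT, 10.3, 8.27 and 8.08 in Doxo, 7.11, 7.74 and 9.41 in Doxo+Cyta and 12.2, 15.9, 9.76 and 11.8 in Doxo+Cyta+DAC. Doxo+Cyta+DAC was above NT and Doxo+Cyta, and its lowest library was below the highest of Doxo. HERC6 rose relative to NT by 0.74 ± 0.21 (adjusted p = 0.0106), lost without NT replicate 1 (0.133), and Doxo and Doxo+Cyta were lower than Doxo+Cyta+DAC, at -0.48 ± 0.18 (adjusted p = 0.0364) and -0.61 ± 0.18 (adjusted p = 0.0106). These were lost without 4 libraries in Doxo (adjusted p from 0.0575 to 0.125) and without Doxo+Cyta replicate 19 (0.0533). UBE2L6 exceeded Doxo+Cyta+DAC by 0.52 ± 0.10 in Doxo and 0.56 ± 0.10 in Doxo+Cyta, while HERC5, the main human ISG15 ligase, was called in none of the 6 comparisons.

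The PARP genes and DTX3L encode enzymes of ADP-ribosylation, and their differences were small. PARP12, found on stress granules and the Golgi, was at 25.4 and 23.8 CPM in NT, 21.8, 24 and 23.2 in Doxo, 29.3, 25.5 and 27.5 in Doxo+Cyta and 16.8, 17.5, 17.2 and 17.4 in Doxo+Cyta+DAC. All Doxo+Cyta+DAC libraries were below all others. PARP12 changed by -0.52 ± 0.12 (adjusted p = 0.00258) relative to NT, and Doxo and Doxo+Cyta exceeded Doxo+Cyta+DAC by 0.42 ± 0.11 (adjusted p = 0.0036) and 0.67 ± 0.10 (adjusted p = 8.45e-05). PARP14 was at 57.6 and 65.5 CPM in NT, 69.6, 83.4 and 75.2 in Doxo, 68.3, 48.1 and 63.1 in Doxo+Cyta and 45.6, 53.4, 40.2 and 51.9 in Doxo+Cyta+DAC. Doxo was above all others, and Doxo+Cyta overlapped with NT and Doxo+Cyta+DAC. Only its excess in Doxo over Doxo+Cyta+DAC was called, at 0.67 ± 0.14 (adjusted p = 0.000806). PARP9 was at 32.7 and 31.7 CPM in NT, 37.4, 39 and 37.5 in Doxo, 30.8, 31.6 and 27.6 in Doxo+Cyta and 45.5, 36.7, 35.9 and 48.2 in Doxo+Cyta+DAC. It was lowest in Doxo+Cyta and NT. PARP9 was lower in Doxo+Cyta than in Doxo+Cyta+DAC, at -0.47 ± 0.12 (adjusted p = 0.00436), and its rise relative to NT, 0.37 ± 0.14 (adjusted p = 0.0423), was lost in 9 of the fits that left out 1 library, with adjusted p from 0.053 to 0.196. DTX3L, which forms a complex with PARP9, was at 36.5 and 40.7 CPM in NT, 38.6, 40.5 and 40.9 in Doxo, 41.4, 27.7 and 36.2 in Doxo+Cyta and 46.7, 44.2, 46.8 and 49.97 in Doxo+Cyta+DAC. The Doxo+Cyta+DAC libraries were above all 8 others, and Doxo+Cyta differed from them by -0.42 ± 0.13 (adjusted p = 0.0115). PARP9 and DTX3L overlap by 339 bases on opposite strands, and reads there cannot be assigned by counting without strand.

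The last class holds IFI genes and other members. XAF1, a promoter of apoptosis, was at 11.8 and 14.5 CPM in NT, 16.6, 21.8 and 17.2 in Doxo, 14.8, 14.2 and 18.5 in Doxo+Cyta and 9.92, 6.81, 6.93 and 7.68 in Doxo+Cyta+DAC. Its lowest libraries were the 4 of Doxo+Cyta+DAC, and Doxo was above NT. XAF1 changed by -0.75 ± 0.19 (adjusted p = 0.00553) relative to NT, lost without NT replicate 2 (0.087), and Doxo and Doxo+Cyta exceeded Doxo+Cyta+DAC by 1.24 ± 0.17 (adjusted p = 3.28e-05) and 1.01 ± 0.17 (adjusted p = 0.000167). LGALS3BP, a secreted glycoprotein, was at 3.65 and 3.93 CPM in NT, 2.02, 2.97 and 3.09 in Doxo, 2.04, 2.6 and 2.26 in Doxo+Cyta and 1.29, 2.06, 2.47 and 1.9 in Doxo+Cyta+DAC. NT was above every relapse library. Its fall was called in Doxo+Cyta+DAC alone (-0.97 ± 0.26 (adjusted p = 0.00817)), lost without NT replicate 2 (0.0623), and the values in Doxo and Doxo+Cyta were -0.49 ± 0.28 and -0.72 ± 0.28.

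IFI35, a regulator of sensor signalling, was at 7.97 and 8.1 CPM in NT, 9.14, 8.44 and 9.09 in Doxo, 8.6, 11.9 and 9.47 in Doxo+Cyta and 14.6, 17.1, 13.6 and 12 in Doxo+Cyta+DAC. All Doxo+Cyta+DAC libraries were above all others, by a narrow margin over Doxo+Cyta replicate 20. IFI35 rose relative to NT by 0.84 ± 0.18 (adjusted p = 0.00178), and Doxo and Doxo+Cyta were lower, at -0.69 ± 0.16 (adjusted p = 0.00174) and -0.52 ± 0.16 (adjusted p = 0.00968), the latter lost without Doxo+Cyta replicate 19 (0.0586). SP100, a component of PML nuclear bodies, was at 49.7 and 47.9 CPM in NT, 70.2, 89.99 and 87.2 in Doxo, 78.2, 82.9 and 88.8 in Doxo+Cyta and 52.2, 50.003, 51.7 and 60.7 in Doxo+Cyta+DAC. All 6 chemotherapy libraries exceeded NT and Doxo+Cyta+DAC. SP100 rose relative to NT by 0.76 ± 0.14 (adjusted p = 0.00553) in Doxo and 0.77 ± 0.14 (adjusted p = 0.0239) in Doxo+Cyta, and exceeded Doxo+Cyta+DAC by 0.62 ± 0.11 (adjusted p = 0.000294) and 0.64 ± 0.11 (adjusted p = 0.000226). The calls relative to NT were lost without NT replicate 1 (adjusted p = 0.0815 and 0.23) or 2 (0.0831 and 0.384), and that in Doxo+Cyta also without its replicate 19 (0.0534) or 22 (0.0595). IFI16 rose relative to NT in Doxo (0.36 ± 0.10) and Doxo+Cyta+DAC (0.42 ± 0.09), the first of these lost in 6 of the fits that left out 1 library, with adjusted p from 0.0568 to 0.238, and IFI6 and IFI27, which many tumours express, were called in none of the 6 comparisons.

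Interferon-stimulated genes lie in clusters of related copies, and adjacent members often differed. SAMD9 and SAMD9L stand 12030 bases apart on chromosome 7, in the same orientation. SAMD9 was at 22.4 and 24.7 CPM in NT, 27.6, 39.2 and 31.9 in Doxo, 26.2, 15 and 25.4 in Doxo+Cyta and 23.3, 32.3, 27.5 and 33.2 in Doxo+Cyta+DAC. Doxo lay above NT, the other groups overlapped, and SAMD9 was called in none of the 6 comparisons, with 0.30 ± 0.22 in Doxo+Cyta+DAC relative to NT beside -1.43 ± 0.25 for SAMD9L. CMPK2 and RSAD2 on chromosome 2 both rose in Doxo+Cyta+DAC. In the deposited annotation they face away from each other, 11029 bases apart. The RefSeq start of RSAD2 lies 11780 bases from its deposited start, inside the deposited span of CMPK2, so there the 2 genes overlap. On chromosome 12, OAS3 rose while OAS1, 18525 bases away, and OAS2, 5219 bases away, were not called. In the IFIT cluster of chromosome 10, IFIT2 and IFIT1 fell and IFIT3, which lies between them, had -0.20 ± 0.15 relative to NT and was not called. The IFITM genes, separated by 4580 and 4400 bases on chromosome 11, all fell. On chromosome 1, GBP1 and GBP2 stand 40772 bases apart, and GBP2 was called in Doxo and Doxo+Cyta and GBP1 in Doxo and Doxo+Cyta+DAC. Differences between neighbours were not tested directly.

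**Figure D4:**
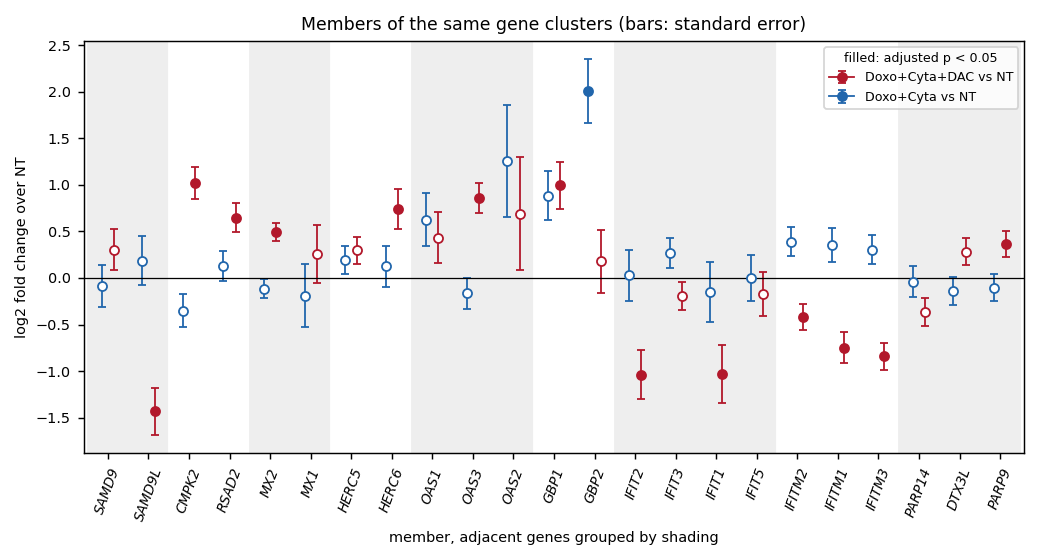
Log2 fold changes with standard errors relative to NT in Doxo+Cyta (blue) and Doxo+Cyta+DAC (red) for members in 9 groups of neighbouring genes, set apart by shading and filled at an adjusted p under 0.05. SAMD9L is at -1.43 in Doxo+Cyta+DAC beside 0.30 for SAMD9, the 3 IFITM genes are all below 0 there, and CMPK2 and RSAD2 are both above 0.

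The other genes of the pathway were counted from lists of ligands, receptors, signal transducers and nucleic acid sensors. Of 22 interferon genes, 21 had at most 3 counts in every library, a level at or below the detection limit. IFNL1, a type III interferon, was the exception at 0.0792 to 0.734 CPM, and no comparison of it was called. Of 6 receptor genes, 5 were tested, and in Doxo+Cyta+DAC relative to NT 1 was higher and 2 lower, where 24.9% and 23.7% of all genes were. IFNAR1, a chain of the type I receptor, was at 86.8 and 88.2 CPM in NT, 103, 100.4 and 99.1 in Doxo, 78.7, 81.1 and 84.3 in Doxo+Cyta and 99.2, 108, 105 and 118 in Doxo+Cyta+DAC. Doxo+Cyta+DAC was above NT and Doxo+Cyta and overlapped with Doxo. Its rise relative to NT, 0.30 ± 0.10 (adjusted p = 0.0254), was lost under upper-quartile scaling (0.0965) and without either NT library (0.153 and 0.119), Doxo replicate 5 (0.0537) or 6 (0.0521) or Doxo+Cyta+DAC replicate 33 (0.0635). IFNAR2, the other chain, ranged from 64.4 to 92.5 CPM over the 12 libraries and was called in none of the 6 comparisons. IL10RB, a chain of the type III receptor, was at 51.4 and 46 CPM in NT, 59.8, 67.1 and 63.2 in Doxo, 55.3, 62.4 and 55.7 in Doxo+Cyta and 28.3, 29.7, 24.5 and 32.2 in Doxo+Cyta+DAC. All other groups were well above Doxo+Cyta+DAC, with a change of -0.77 ± 0.12 (adjusted p = 0.000236) relative to NT. IFNGR1, the ligand-binding chain for interferon gamma, was at 53.6 and 51.6 CPM in NT, 46.2, 68.2 and 73.8 in Doxo, 59.7, 59.2 and 66.4 in Doxo+Cyta and 31.7, 31.3, 31.3 and 34.1 in Doxo+Cyta+DAC. It too was lowest in Doxo+Cyta+DAC, at -0.71 ± 0.15 (adjusted p = 0.00173) relative to NT, and IFNGR2, its partner, was higher in Doxo and Doxo+Cyta than in Doxo+Cyta+DAC by 0.65 ± 0.19 (adjusted p = 0.0101) and 0.60 ± 0.19 (adjusted p = 0.0162), the latter lost without Doxo+Cyta replicate 20 (0.0535).

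Among 12 genes of receptor signalling, 1 was higher and 3 lower in Doxo+Cyta+DAC than in NT, near or below the 24.9% and 23.7% of all genes. JAK2, the kinase of interferon gamma and erythropoietin receptors, was at 409 and 442 CPM in NT, 374, 588 and 571 in Doxo, 476, 272 and 481 in Doxo+Cyta and 165, 152, 139.8 and 190.4 in Doxo+Cyta+DAC. The Doxo+Cyta+DAC libraries were below all others, and the change was -1.40 ± 0.21 (adjusted p = 0.000148) relative to NT. IRF2, a repressor of interferon target genes, was at 37.4 and 30.7 CPM in NT, 30.3, 45.7 and 45.6 in Doxo, 48.7, 34.6 and 46.4 in Doxo+Cyta and 15.7, 12.5, 14.6 and 15.8 in Doxo+Cyta+DAC. It was likewise lowest in Doxo+Cyta+DAC, at -1.21 ± 0.19 (adjusted p = 0.000158) relative to NT. SOCS3, a feedback inhibitor of Janus kinases, was at 6.28 and 5.3 CPM in NT, 7.68, 4.54 and 6.0 in Doxo, 5.81, 6.94 and 5.5 in Doxo+Cyta and 16.4, 24.8, 24.3 and 21.5 in Doxo+Cyta+DAC. It went the other way and rose by 1.91 ± 0.23 (adjusted p = 2.93e-05). JAK1 and STAT3 were called in none of the 6 comparisons, and TYK2 was called only in Doxo+Cyta over Doxo+Cyta+DAC (0.34 ± 0.09).

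**Figure D5:**
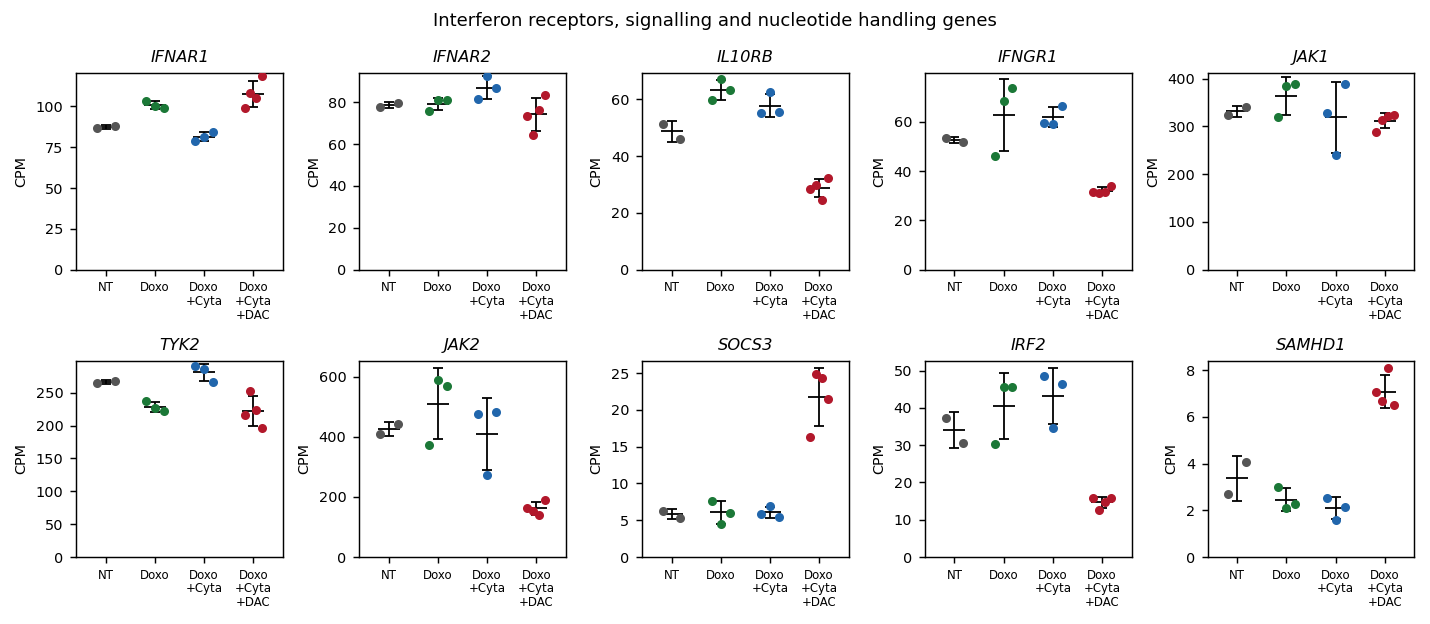
CPM in each library (points), with the mean and SD of each group (bars), for 10 genes of interferon reception, signalling and nucleotide handling, each axis starting at 0. IL10RB, IFNGR1, JAK2 and IRF2 are lowest in Doxo+Cyta+DAC, and SOCS3 and SAMHD1 are highest there. IFNAR2 and JAK1 were called in none of the 6 comparisons.

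Of 23 genes of nucleic acid sensing, 20 were tested, and 4 were higher and 4 lower in Doxo+Cyta+DAC than in NT, no more than the 24.9% and 23.7% of all genes. SAMHD1, which degrades deoxynucleotides and inactivates cytarabine triphosphate, was at 2.67 and 4.05 CPM in NT, 3.0, 2.1 and 2.27 in Doxo, 2.54, 1.6 and 2.14 in Doxo+Cyta and 7.04, 6.67, 8.08 and 6.49 in Doxo+Cyta+DAC. It was highest in Doxo+Cyta+DAC and rose there by 1.08 ± 0.25 (adjusted p = 0.00261), lost without NT replicate 1 (0.066), and was lower in Doxo and Doxo+Cyta, at -1.53 ± 0.22 (adjusted p = 5.3e-05) and -1.75 ± 0.23 (adjusted p = 1.69e-05). TLR3, the endosomal sensor of double-stranded RNA, was at 1.59 and 2.74 CPM in NT, 4.05, 9.6 and 8.77 in Doxo, 3.96, 3.0 and 4.52 in Doxo+Cyta and 3.12, 5.43, 3.67 and 3.25 in Doxo+Cyta+DAC. Doxo replicates 5 and 6 were above all other libraries, and Doxo replicate 4 overlapped with the other relapses. TLR3 rose in Doxo relative to NT by 1.80 ± 0.39 (adjusted p = 0.0122), a call lost without NT replicate 1 (0.165) or 2 (0.0643) or Doxo replicate 5 (0.0544). MAVS, the adaptor through which RIG-I and MDA5 signal, was lower in Doxo+Cyta+DAC than in NT, at -0.96 ± 0.17 (adjusted p = 0.000532), with 46.7 to 64.3 CPM beside 105 and 122 CPM. MAVS was named after its values were seen.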

How the data were processed

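RNA of 12 HEL samples was sequenced from TruSeq libraries. The authors aligned reads with Bowtie2 2.2.8 to GRCh38 and counted fragments per gene with featureCounts (1.6.0 in the file header), without strand and not counting those with several alignments or in more than 1 gene. The deposited values are raw counts. Of 26485 rows, 4 with a missing count were dropped. The series text names 3 untreated replicates, of which 2 were analysed here.

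Groups were taken from the labels. Counts were scaled by TMM and fitted in 1 model of all 4 groups with edgeR 4.0.16 in R 4.3.3 (quasi-likelihood test, Benjamini-Hochberg adjustment over 14164 genes kept by edgeR's filter on low counts), after the fit was tested on simulated data. Total counts of 12763582 to 19106235 set the precision of low genes, and 3 counts a library served as the detection limit. No 2 libraries of the same group agreed within sampling noise.

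The members and lists were chosen with earlier results of these data known. Values in every sample were given for all RNA sensors and transcription factors used, for up to 4 called members of each other class with the largest fold change and, in the group where they were higher, a mean of 1 CPM or more, and for the type I receptor genes and up to 3 called genes of each pathway list. Some genes that this rule names are not reported here. Other genes named were chosen after their values were seen. Alternatives were RLE and upper-quartile scaling, DESeq2 1.42.0, 2 other filters, a fit of the 2 groups compared, a stricter call and leaving out each sample. Tables were handled with Python 3.11.15, pandas 2.3.3 and numpy 2.4.6, and figures drawn with matplotlib 3.10.9.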

Additional observations from a re-analysis of the deposited data

Results flagged for a closer look

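In the group of 4 Doxo+Cyta+DAC libraries, 1 library stood apart from the other three in 4 of the 85 genes examined. Chance alone flags about 1 in 20 such groups. OAS2 was at 1.16 CPM in replicate 30 and at 0.238 to 0.367 CPM in the others. SAMD9L was at 3.94 CPM in replicate 32 and at 5.36 to 5.62 CPM in the others, all below NT. IFNGR1 was at 34.1 CPM in replicate 33 and at 31.3 to 31.7 CPM in the others. PIAS1, an inhibitor of STAT proteins, was at 37.6 CPM in replicate 33 and at 31.1 to 31.8 CPM in the others.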

How the results depend on the processing

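No paired analysis was possible because the groups share no replicate numbers. Of 1854 combinations of a called member and an alternative other than the stricter call, 1715 kept direction and call, 139 lost the call and 0 reversed. Of 3329 uncalled ones, 57 gained a call and 96 changed sign. Under all of these alternatives, 28 of the 33 calls between Doxo and Doxo+Cyta+DAC remained, as did 28 of the 34 for Doxo+Cyta. Of the calls against NT, 13 of 22 remained for the decitabine relapse, 0 of 10 for Doxo and 0 of 3 for Doxo+Cyta. With 1 NT library left, its spread was assumed to be that of the other groups.

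Leaving out 1 library gave 0 to 17 members higher and 0 to 1 lower in Doxo relative to NT, 0 to 4 higher in Doxo+Cyta, and 5 to 12 higher and 9 to 15 lower in Doxo+Cyta+DAC. Against this last relapse it gave 22 to 28 higher and 6 to 8 lower in Doxo, and 23 to 26 higher and 7 to 10 lower in Doxo+Cyta, and between Doxo and Doxo+Cyta 0 to 2 higher. In Doxo+Cyta relative to NT, DESeq2 called 6 members higher and a fit of the 2 groups compared 1. IRF1, the 1 member higher in Doxo than in Doxo+Cyta, was lost (0 called) under upper-quartile scaling, under a filter of 10 counts in 2 samples and in a fit of the 2 groups compared, and DESeq2 called 1 member lower there. A fold change over 2 with an adjusted p under 0.01 left 4 higher in Doxo, 0 in Doxo+Cyta, and 1 higher and 4 lower in the decitabine relapse over NT, 11 higher and 3 lower in Doxo and 10 higher and 2 lower in Doxo+Cyta against that relapse, and 0 higher between Doxo and Doxo+Cyta. Fewer libraries or a stricter limit lower such counts by construction, and for the other settings the cause was not tested. For fits other than the main one, the share of all genes called was not computed, so their counts cannot be set against a background.

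The median change of the members in Doxo+Cyta+DAC relative to NT, 0.04, was -0.05 under upper-quartile scaling, -0.02 in a fit of the 2 groups compared, -0.03 without NT replicate 2, and -0.03 without Doxo+Cyta+DAC replicate 30 or 31, so its sign is not fixed. That between Doxo and Doxo+Cyta, 0.09, was -0.02 without Doxo replicate 5. In Doxo+Cyta relative to NT the median, 0.25, was 0.20 without Doxo+Cyta replicate 20 and 0.17 without replicate 22. At 3 to 26 counts a library, OAS2, IFI27 and MX1 were limited by depth. For IFI27, as for IRF7, fragments shared with a copy on an alternate contig may also have been lost, which was not measured.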
